A study of Mus musculus with 12 samples.

Results

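Lymphoid priming is the low-level expression of lymphoid genes in hematopoietic progenitors that have not yet committed to a lymphoid fate. Flt3, Il7r, Notch1, Satb1, Dntt, Rag1, Rag2, and Lck, genes that mark this state or the T-cell fate next to it, were followed here in mouse hematopoietic stem and progenitor cells with and without a knockdown of Rad21, a core subunit of the cohesin ring. The genes were chosen by symbol and found by their Ensembl identifiers, 8 of the 46078 genes counted, and B-cell and plasma-cell genes were not among the 8. The cells formed 4 groups, with 3 RNA-seq libraries in each. All cells came from bone marrow of C57BL/6 mice, were LSK (Lineage-Sca-1+c-Kit+) cells when infected with a lentivirus that also encodes GFP, and carried an shRNA that targets either Rad21 (shRad21) or, as the control, luciferase (shLuci). In culture, GFP+CD48-Sca-1+ cells were sorted 3 d after isolation and infection from medium with thrombopoietin and stem cell factor. In vivo, GFP+ LSK cells were sorted from mice transplanted with infected LSK cells, 3 mo after transplantation by the labels, whereas the methods of the study name a later time. The labels do not tie a library to an animal or a culture, and they do not say which Rad21 shRNA was used, so p-values measure only the spread between these libraries.

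Multipotent progenitors that express the receptor tyrosine kinase FLT3 at a high level are the main source of lymphoid cells, and they pass through a stage that gains the interleukin-7 receptor. On this route, recombination genes such as Rag1, Rag2, and Dntt are switched on before any antigen receptor is made, and SATB1, a chromatin organizer, takes part in opening the lymphoid program. NOTCH1 signaling directs progenitors to the T-cell fate, in which LCK is the kinase proximal to the T-cell receptor.

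Total counts per library ranged from 15235129 to 29846689, and 3 counts, taken as the smallest detectable amount, stood for 0.101 to 0.197 CPM (counts per 1000000 counts) before scaling, a limit that covers counting error only. Levels are given as CPM scaled with TMM, a normalization for library composition, over all 12 libraries. Rad21 was at 34.8% of the shLuci level in culture and at 37.2% in vivo, and no shRad21 library overlapped a shLuci library of its setting. Kit and Ly6a, the genes of the sorted proteins c-Kit and Sca-1, were expressed in each group, Kit at means of 276 to 910 CPM and Ly6a at 146 to 231 CPM. The culture libraries were made with the TruSeq kit and the in vivo libraries with SMART-Seq v4 followed by Nextera XT, each setting in 1 sequencing lane, so an effect of culture cannot be told apart from the kit, the lane, or the sort.

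The 8 genes were located on GRCm38 (mm10), where each is protein coding. The receptors are Flt3 (ENSMUSG00000042817, chr5:147330741-147400489, minus strand), Il7r (ENSMUSG00000003882, chr15:9505788-9530176, minus strand), and Notch1 (ENSMUSG00000026923, chr2:26457903-26516663, minus strand). The nuclear proteins are Satb1 (ENSMUSG00000023927, chr17:51736187-51833290, minus strand), Dntt (ENSMUSG00000025014, chr19:41029275-41059525, plus strand), Rag1 (ENSMUSG00000061311, chr2:101638282-101649501, minus strand), and Rag2 (ENSMUSG00000032864, chr2:101624718-101632529, plus strand). The kinase gene Lck is ENSMUSG00000000409 (chr4:129548344-129573641, minus strand). Rag1 and Rag2 are neighbours transcribed toward each other, 5.75 kb apart. Other annotated genes share 9.76% of the exonic bases of Notch1, 6.07% of those of Rag2, and at most 1.49% of those of the other 6 genes, and the strand setting of the counting is not given in the sources used here, so reads in the shared bases cannot be assigned with certainty.

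The 250 bases upstream of the RefSeq start (GRCm38.p6) are shown for 4 genes that fell together in vivo. Flt3 is shown as the receptor that defines the lymphoid-primed stage, Dntt as a gene whose knockdown effect differed between settings, and Rag1 and Rag2 as a pair that shares a locus. The sequences are written 5′ to 3′ on the strand of the gene, and capitals mark matches on either strand to 6 motifs: CAGGTG, an E-box that E proteins bind, another E-box, CAGCTG, the Runx motif TGTGGT, the Ikaros and RBPJ motif TGGGAA, the TCF7 and LEF1 motif CTTTGA, and the Ets motif GGAAGT.
Flt3, chr5:147400490-147400739, minus strand: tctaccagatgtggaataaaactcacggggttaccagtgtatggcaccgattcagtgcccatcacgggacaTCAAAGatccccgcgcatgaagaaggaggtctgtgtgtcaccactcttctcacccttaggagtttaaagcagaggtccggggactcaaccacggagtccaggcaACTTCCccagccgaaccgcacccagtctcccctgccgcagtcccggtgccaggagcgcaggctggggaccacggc
Dntt, chr19:41029025-41029274, plus strand: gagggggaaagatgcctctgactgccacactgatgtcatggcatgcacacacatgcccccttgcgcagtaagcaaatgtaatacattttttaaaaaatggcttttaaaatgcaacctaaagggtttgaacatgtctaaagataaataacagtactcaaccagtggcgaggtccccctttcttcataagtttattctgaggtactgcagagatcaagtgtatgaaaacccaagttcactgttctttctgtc
Rag1, chr2:101649533-101649782, minus strand: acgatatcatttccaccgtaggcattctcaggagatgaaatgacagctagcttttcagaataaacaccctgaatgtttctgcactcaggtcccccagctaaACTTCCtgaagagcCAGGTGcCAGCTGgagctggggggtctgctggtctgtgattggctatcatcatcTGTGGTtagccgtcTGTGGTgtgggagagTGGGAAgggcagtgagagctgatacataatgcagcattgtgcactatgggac
Rag2, chr2:101624462-101624711, plus strand: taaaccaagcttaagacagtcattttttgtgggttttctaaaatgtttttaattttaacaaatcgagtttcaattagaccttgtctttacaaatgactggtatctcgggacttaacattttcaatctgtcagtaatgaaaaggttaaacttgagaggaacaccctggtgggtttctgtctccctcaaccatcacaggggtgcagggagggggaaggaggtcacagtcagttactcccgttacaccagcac

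The Rag1 window held matches to 5 of the 6 motifs, with TGTGGT present at 2 places and CAGGTG and CAGCTG 1 base apart. The Flt3 window held 1 match to CTTTGA and 1 to GGAAGT, whereas the Dntt and Rag2 windows held no match. Over the 13 windows of the 8 genes, which include 5 starts of Satb1 and 2 of Lck, GGAAGT was present in 7 windows, compared with 19.7% of 32851 windows of the same length. By gene, it was present in 5 of the 8, a count to which the share of windows does not apply. Some of the Satb1 windows overlap each other, so the 13 windows are not independent. CAGGTG was present in 3 windows (17.2% of all windows), CAGCTG in 2 (13%), TGTGGT in 2 (14%), TGGGAA in 3 (21.6%), and CTTTGA in 1 (13.8%). CAGCTG reads the same on both strands. TGGGAA and GGAAGT can share letters, and in 1 Satb1 window they overlapped on the same strand. Longer motifs of NF-κB and CTCF, searched by pattern, were found in none of the 13 windows, compared with 3.9% and 0.508% of all windows. A match describes letters only, and no binding was measured.

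In transplanted cells, each of the 8 genes was lower with shRad21 than with shLuci. The remaining level was 14.1% of control for Rag1, between 19.7% and 20.3% for Il7r, Rag2, and Dntt, between 32.8% and 38.5% for Flt3, Lck, and Satb1, and 62.8% for Notch1. All 8 passed an adjusted p of 0.05 (quasi-likelihood F-test of edgeR, adjusted by Benjamini-Hochberg over 15938 genes), compared with 5.32% of all genes tested that were called lower, and 0 were called higher, compared with 5.65%. Their median log2 fold change was -1.95, compared with -0.0019 for all genes tested. Because the 8 genes were chosen with earlier results of these data known, these shares describe the genes and do not test the set. Rag1 and Il7r passed the filter on low counts only through their shLuci libraries, where they were high, so of these 2 genes a call in the other direction was hardly possible. In bulk RNA, fewer cells of a type and less RNA per cell cannot be told apart.

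**Figure D1:**
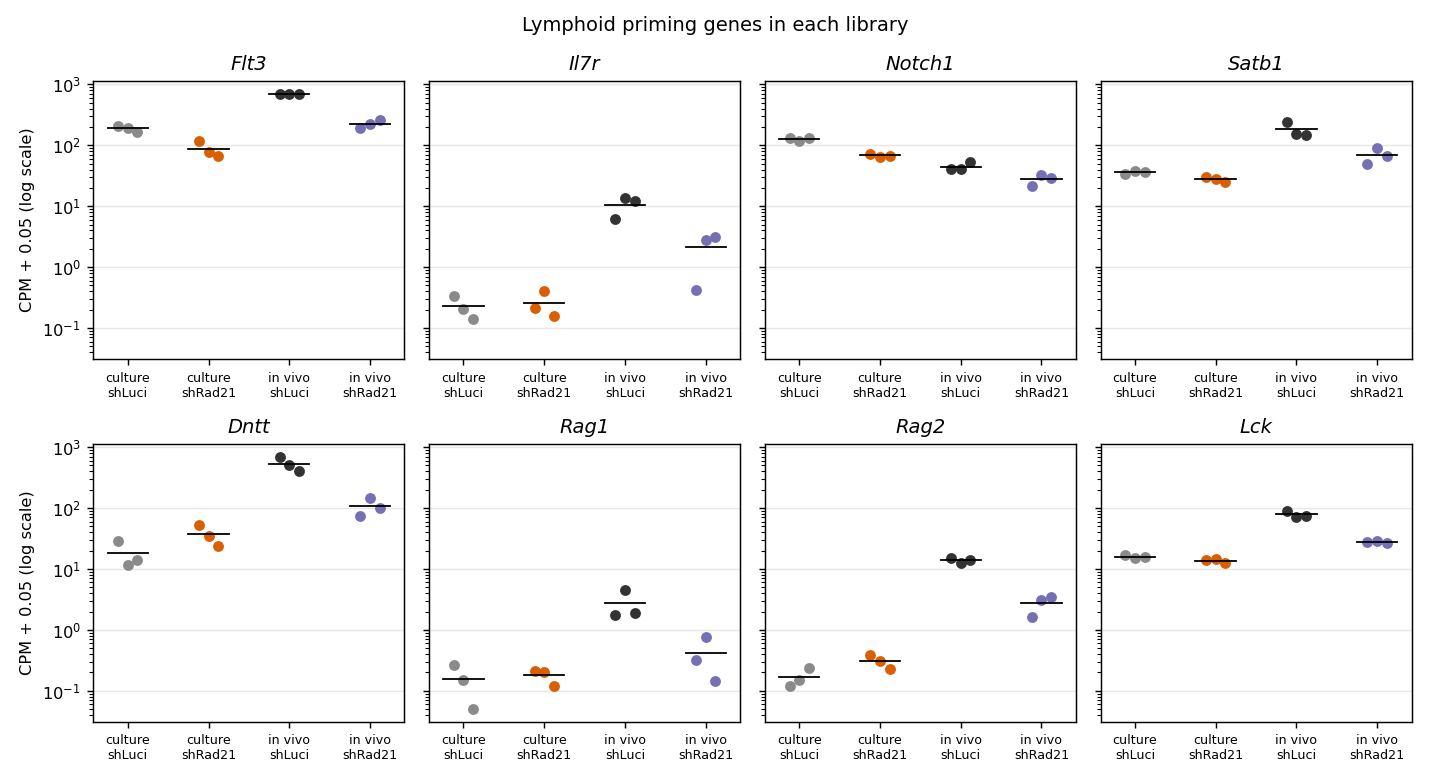
Expression of the 8 genes in each of the 12 libraries, as CPM plus 0.05 on a log axis, with points for libraries and a line at the mean of 3. In vivo the shRad21 points lie below the shLuci points in every panel, and Il7r, Rag1, and Rag2 are near the detection limit in culture.

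Of the receptors, Flt3 measured 688, 704, and 704 CPM in the 3 shLuci libraries in vivo and 193, 228, and 260 CPM in the shRad21 libraries. The control libraries were nearly equal, and the highest shRad21 library was far below the lowest of them. The log2 fold change of Flt3 was -1.61 (SE 0.10, adjusted p = 2.48e-05). Il7r, which encodes the alpha chain of the interleukin-7 receptor, measured 6.13, 13.5, and 12.0 CPM with shLuci and 0.366, 2.74, and 3.06 CPM with shRad21. Replicate 1 was the lowest library of both groups, and the ranges did not overlap. The log2 fold change of Il7r was -2.34 (SE 0.56, adjusted p = 0.0252). Notch1 measured 41.2, 40.2, and 52.7 CPM with shLuci and 21.4, 33.0, and 28.8 CPM with shRad21. Its decrease was the smallest of the 8 genes, with a log2 fold change of -0.67 (SE 0.17, adjusted p = 0.0298), and the ranges did not overlap.

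Of the nuclear proteins, Satb1 measured 242, 154, and 150 CPM with shLuci and 49.2, 92.0, and 66.3 CPM with shRad21 in vivo. The first shLuci library stood above the other two, and each shRad21 library was below all 3 controls. The log2 fold change of Satb1 was -1.38 (SE 0.23, adjusted p = 0.00508). Dntt encodes terminal deoxynucleotidyl transferase, which adds bases at the joints of antigen receptor genes. It measured 693, 511, and 398 CPM with shLuci and 72.5, 148, and 100 CPM with shRad21. Both groups spread widely without overlap, and the log2 fold change was -2.30 (SE 0.26, adjusted p = 0.000571).

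Rag1 and Rag2 encode the recombinase that cuts antigen receptor genes. Rag2 measured 14.9, 12.4, and 13.8 CPM with shLuci and 1.60, 3.05, and 3.43 CPM with shRad21 in vivo, a log2 fold change of -2.33 (SE 0.25, adjusted p = 0.000484). Rag1 measured 1.73, 4.43, and 1.81 CPM with shLuci and 0.274, 0.718, and 0.0941 CPM with shRad21, from 168 counts in all controls and 24 in all knockdown libraries. Its log2 fold change was -2.83 (SE 0.63, adjusted p = 0.0186), the largest estimate and the least precise. Without shRad21 replicate 2 it was -3.79, and without shLuci replicate 2 it was -2.24, smaller than the falls of Rag2 (-2.39) and Dntt (-2.32) in the same fit, so the order of these genes is not fixed. The groups did not overlap for either gene, and the shLuci library with the highest Rag1 had the lowest Rag2.

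Lck measured 89.2, 70.8, and 74.6 CPM with shLuci and 28.1, 28.8, and 26.7 CPM with shRad21 in vivo. The knockdown libraries were nearly equal to each other and below each control. The log2 fold change of Lck was -1.47 (SE 0.10, adjusted p = 3.74e-05). The ranges of the groups did not overlap for any of the 8 genes, compared with 15.7% of all genes tested with shRad21 below shLuci throughout. The calls of Il7r, Rag1, and Notch1, though not the direction, depended on single libraries. Without shRad21 replicate 3, 5 of the 8 genes were called, and Il7r (log2 fold change -2.73, adjusted p = 0.0524), Rag1 (-2.38, 0.0640), and Notch1 (-0.69, 0.0941) were not, with folds similar to or larger than those of all libraries for Il7r and Notch1. Il7r also lost its call without shLuci replicate 2 (0.0819) or 3 (0.0649) or shRad21 replicate 2 (0.05005), Rag1 without shLuci replicate 2 (0.0719) or shRad21 replicate 1 (0.0732), and Notch1 without shLuci replicate 3 (0.0974) or shRad21 replicate 1 (0.0703).

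In culture, Flt3, Notch1, and Satb1 fell with shRad21, and Lck did not pass the test. Il7r, Rag1, and Rag2 had too few counts for a test. Dntt was called higher with the replicate number as a block, which uses the pairing of the culture libraries (adjusted p = 1.20e-05). Without the block, as in the other culture values given here, Dntt was not called (adjusted p = 0.0635). It was also called higher where certain libraries or the filter were left out. Of the 5 genes tested, 3 were called lower and 0 higher without the block, compared with 8.06% and 6.18% of the 15543 genes tested in culture. With the block, 3 were called lower and 1 higher. The median log2 fold change of the 5 was -0.37, compared with -0.0039 for all genes tested.

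**Figure D2:**
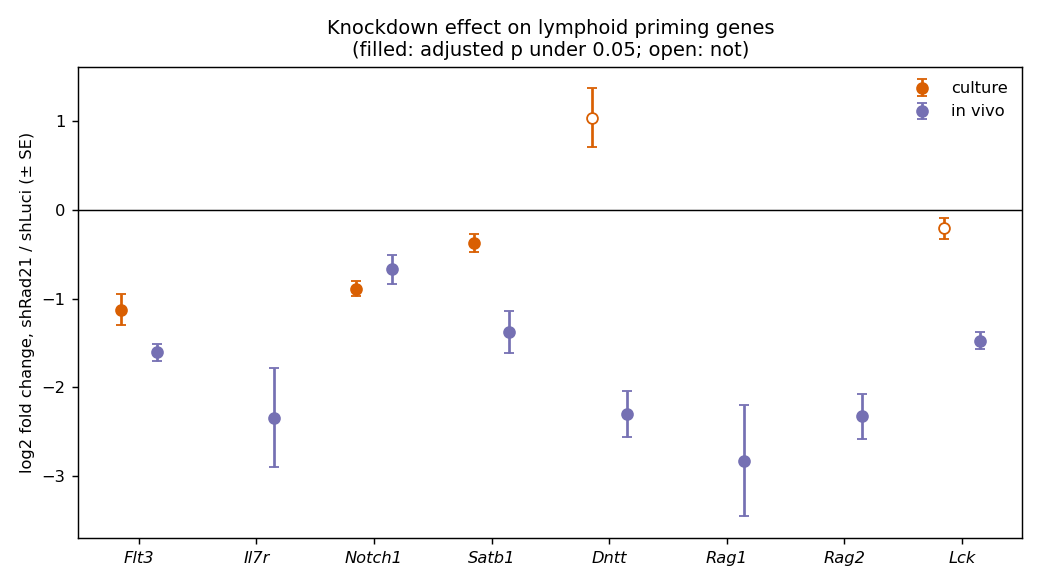
Log2 fold change of shRad21 over shLuci with its standard error for each gene in culture (orange) and in vivo (purple), with filled symbols for an adjusted p under 0.05. Dntt is the one gene with its 2 estimates on opposite sides of 0. Its culture estimate is not called in the fit shown, which has no replicate block, and is called with the block. Il7r, Rag1, and Rag2 have no culture estimate.

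Flt3 measured 211, 191, and 168 CPM with shLuci and 116, 76.3, and 67.0 CPM with shRad21 in culture. The ranges did not overlap, and the log2 fold change was -1.12 (SE 0.17, adjusted p = 0.00168). Notch1 measured 131, 118, and 134 CPM with shLuci and 73.0, 65.2, and 67.4 CPM with shRad21. The libraries within each group were close, and the log2 fold change was -0.89 (SE 0.08, adjusted p = 8.93e-05). Satb1 measured 33.4, 37.9, and 36.5 CPM with shLuci and 30.3, 27.6, and 25.3 CPM with shRad21. Its ranges were separate by a small margin, with a log2 fold change of -0.37 (SE 0.10, adjusted p = 0.0340). The Satb1 call was lost when all 12 libraries were fitted in a single model (adjusted p = 0.304) and without shLuci replicate 2 (0.126), shRad21 replicate 2 (0.125), or shRad21 replicate 3 (0.157).

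Lck measured 16.7, 15.1, and 15.5 CPM with shLuci and 13.9, 14.6, and 12.2 CPM with shRad21 in culture. Although the ranges did not overlap, the log2 fold change of -0.21 (SE 0.12) did not pass the test (adjusted p = 0.305). Nonoverlapping ranges with shRad21 below were seen for Flt3, Notch1, Satb1, and Lck, 4 of the 5 genes tested, compared with 16.2% of all genes tested. Dntt measured 29.0, 11.6, and 14.0 CPM with shLuci and 52.4, 34.4, and 23.5 CPM with shRad21. The highest control library was above the lowest knockdown library, and replicate 1 was the highest library of both groups. The log2 fold change of Dntt was +1.04 (SE 0.33, adjusted p = 0.0635). In each pair of libraries with the same number, Dntt was higher with shRad21. With the replicate number as a block, the log2 fold change was +1.05 and the adjusted p was 1.20e-05. The call was also made without shLuci replicate 1 (log2 fold change +1.52, adjusted p = 0.00957) or shRad21 replicate 3 (+1.29, adjusted p = 0.0256).

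The recombination genes and Il7r were near the detection limit in culture. Il7r had 9 counts in the 3 shLuci libraries and 14 in the 3 shRad21 libraries, Rag1 had 5 and 9, and Rag2 had 7 and 18. Rag2 measured 0.0701, 0.103, and 0.187 CPM with shLuci and 0.330, 0.252, and 0.178 CPM with shRad21, ranges that overlapped. Exact two-sided permutation tests gave p = 0.6 for Il7r, p = 0.7 for Rag1, and p = 0.2 for Rag2, where 3 libraries against 3 cannot go below 0.1. A difference in these 3 genes was not detectable in culture at this depth.

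The knockdown effects of the 2 settings were compared by their interaction in a model of all 12 libraries. Dntt, Lck, and Rag2 differed, each with a culture effect above the in vivo effect, compared with 1.64% of 17050 genes called in that direction, and 0 of the 8 differed in the other, compared with 3.03%. The difference (culture minus in vivo, log2) was 3.36 (SE 0.49, adjusted p = 0.00127) for Dntt, 1.27 (SE 0.15, adjusted p = 0.000259) for Lck, and 3.30 (SE 0.61, adjusted p = 0.00597) for Rag2. Rag2, like Il7r and Rag1, entered this test only through the in vivo libraries. The difference was 1.02 (SE 0.29, adjusted p = 0.0586) for Satb1, 0.49 (SE 0.23, adjusted p = 0.273) for Flt3, and -0.21 (SE 0.19, adjusted p = 0.656) for Notch1. Satb1 crossed the threshold without shLuci replicate 3 (adjusted p = 0.0425) or shRad21 replicate 2 (0.0125) of the in vivo experiment. For Il7r (2.61, SE 1.15) and Rag1 (3.26, SE 1.26) the difference did not pass the test (adjusted p = 0.249 and 0.178).

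Between the settings, 7 of the 8 genes were lower in cultured than in transplanted shLuci cells and Notch1 was higher, compared with 37.1% of all genes called in each direction. The log2 difference in shLuci cells was -6.70 for Rag2, -5.95 for Il7r, -4.91 for Dntt, -4.75 for Rag1, -2.34 for Satb1, -2.31 for Lck, and -1.88 for Flt3, all with an adjusted p of at most 5.47e-05. The culture levels of Rag2, Il7r, and Rag1 were near the detection limit, so their differences depend on few counts. Rag2, Il7r, and Rag1 also entered this model only through the in vivo libraries. A call higher in culture was thus hardly possible for them, in shLuci or in shRad21 cells. Notch1 was 1.51 higher (SE 0.14, adjusted p = 1.07e-07). In shRad21 cells, 6 of the 8 were called lower in culture (background 36.5%), from -3.40 for Rag2 to -1.04 for Lck, Notch1 was 1.31 higher (background 35.3%), and Rag1 at -1.49 was not called (adjusted p = 0.114). Scaling by library size alone moved the median of all genes by -0.17, and no direction among the 8 genes changed.

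The order of the 4 groups was the same for Flt3, Satb1, and Lck. Levels were highest with shLuci in vivo, then with shRad21 in vivo, then with shLuci in culture, and lowest with shRad21 in culture. For Flt3, the ranges of the shRad21 cells in vivo and the shLuci cells in culture overlapped, with means of 227 ± 33.5 and 190 ± 21.6 CPM (SD, n = 3). For Dntt, Il7r, Rag1, and Rag2, the 2 in vivo groups came first in the same order, and the culture groups overlapped each other. The range of Rag1 with shRad21 in vivo also overlapped the culture groups. Notch1 had the order culture shLuci, culture shRad21, in vivo shLuci, and in vivo shRad21, and none of these neighbours overlapped.

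Levels were compared between genes per kilobase of exonic length. In shLuci cells in vivo, Dntt had the highest level at 233 ± 64.9 CPM per kb (SD, n = 3), followed by Flt3 at 113 ± 1.49 and Lck at 26.7 ± 3.32 CPM per kb. Satb1 had 9.55, Rag2 4.01, Notch1 3.14, Il7r 2.26, and Rag1 0.402 CPM per kb. With shRad21 in vivo, Dntt at 46.7 ± 16.6 and Flt3 at 36.8 ± 5.42 CPM per kb still came first. In cultured shLuci cells, Flt3 came first at 30.7 ± 3.50 CPM per kb, followed by Notch1 at 8.96 ± 0.592 and Dntt at 7.95 ± 4.12 CPM per kb.

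Across libraries, the 8 genes were positively correlated in vivo and of mixed sign in culture. Over the 6 in vivo libraries, Pearson's r of log2 CPM between any pair ranged from 0.746 for Il7r and Rag1 to 0.988 for Flt3 and Rag2, values that include the difference between the groups. Over the 6 culture libraries, r was 0.933 for Flt3 and Notch1 and 0.926 for Flt3 and Satb1, but -0.43 for Flt3 and Dntt, -0.61 for Satb1 and Dntt, and -0.63 for Notch1 and Dntt. Dntt had an r of 0.653 with Rag1 and 0.562 with Rag2 in culture, and Rag2, with few counts, had -0.64 with Flt3 and -0.72 with Notch1. Among 13220 genes at an average log2 CPM of 1 or more, the pattern over 12 libraries most like Flt3 was that of Tmem121 (r = 0.983) and that most like Satb1 was Kif18b (r = 0.991). Dntt was most like Arpp21 (r = 0.980), Notch1 like Rapgef6 (r = 0.987), Lck like Arhgap9 (r = 0.986), and Rag2 like Tmem173 (r = 0.986). Rag1 was most like Mad2l1 (r = 0.963) and Il7r like Igkv12-89, an immunoglobulin kappa variable gene (r = 0.972). Over the 6 culture libraries alone, r was -0.41 for Lck and Arhgap9, 0.335 for Rag2 and Tmem173, and 0 for Il7r and Igkv12-89. For the most similar genes of Flt3, Satb1, Dntt, Notch1, and Rag1 it was 0.668 to 0.953. Over the 6 in vivo libraries alone, r of the most similar genes was 0.946 to 0.996. These correlations are descriptions over libraries that share depth, kit, and group.

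Blnk and Egfl7, the neighbours of Dntt and Notch1, changed in the same direction as these genes in vivo, and no neighbour of Flt3, Lck, Satb1, or Il7r was called there. Blnk, an adaptor of B-cell receptor signaling 34.7 kb from Dntt, fell in vivo by 2.27 on the log2 scale (SE 0.16, adjusted p = 4.62e-05) and had too few counts for a test in culture. Egfl7, 63.4 kb from Notch1, fell by 0.48 in culture (adjusted p = 0.00728) and by 0.98 in vivo (adjusted p = 0.000117) on the log2 scale. Spef2, 48.0 kb from Il7r, was higher in culture (+1.62, adjusted p = 0.00297), as was Tbc1d5, 557 kb from Satb1 (+0.32, adjusted p = 0.0231). The neighbour on the other side of Satb1, Rab5a, was 1646 kb away. On both sides of Flt3 and Lck, none of the neighbours was called in either setting. B230118H07Rik, which spans the Rag locus, and Traf6, 28.9 kb from Rag1, were not called (adjusted p = 0.0569 and 0.880 in vivo).

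**Figure D3:**
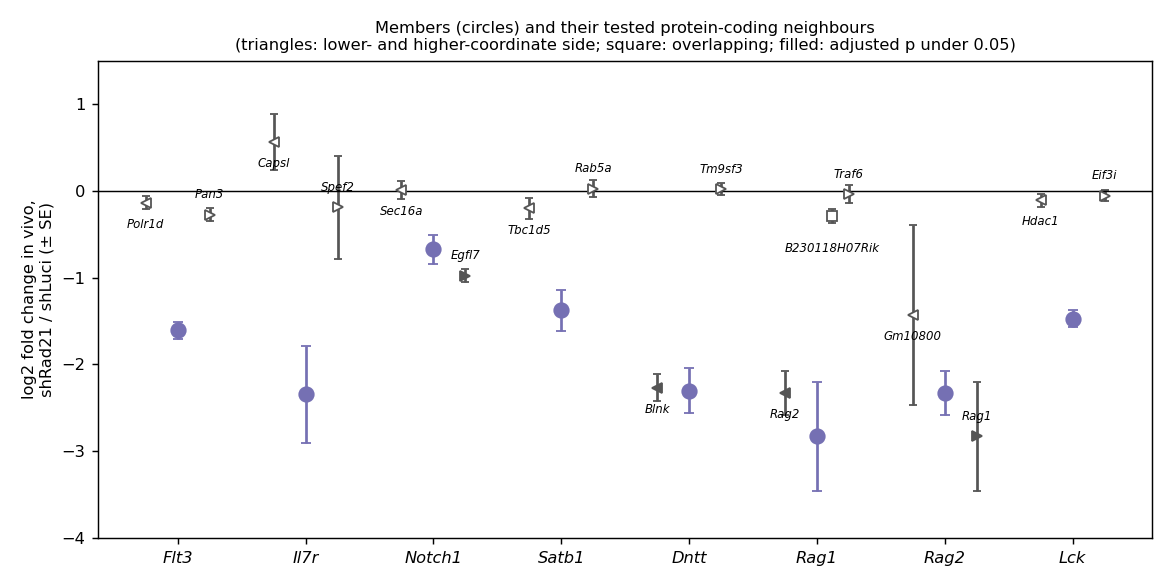
Log2 fold change in vivo with its standard error for the 8 genes (circles), their nearest tested protein-coding neighbours on each side (triangles), and the gene that overlaps the Rag locus (square). Blnk and Egfl7 fell beside Dntt and Notch1, and no other neighbour outside the Rag pair has a filled symbol.

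The other genes of the pathways are given as counts, to be read against the share of all genes tested, 5.32% lower and 5.65% higher in vivo and 8.06% lower and 6.18% higher in culture. Of 13 genes of FLT3 signaling tested, 1 was lower and 4 were higher in vivo, the latter a larger share than among all genes, and 0 were lower and 2 higher in culture. Sla2, an adaptor that restrains receptor signaling, was higher in both settings (+0.61 in culture and +0.67 in vivo), and Socs2, a suppressor of cytokine signaling, was higher in vivo (+1.75, adjusted p = 0.0164). Of 14 genes of interleukin-7 receptor signaling, 1 was lower and 2 were higher in vivo and 1 was lower and 1 higher in culture. Bcl2, a survival gene downstream of the receptor, was lower in both settings (-0.66 and -0.69), and Foxo1, an activator of Il7r, was higher in both (+0.43 and +0.51). Cish was higher in vivo (+1.23, adjusted p = 0.0156) but not called in culture (-0.38, adjusted p = 0.0820).

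Of the Notch pathway, 1 of 33 genes tested was lower and 1 higher in vivo, and 3 of 32 were lower and 2 higher in culture, shares near or below those of all genes. Lfng, which modifies Notch receptors, was higher in culture (+0.46) and lower in vivo (-0.70), and the difference between the settings was called (1.17). Notch2 and Notch3, the receptor paralogs, were lower in culture (-0.32 and -0.58). Of 18 genes of V(D)J joining, 4 were lower in vivo (Paxx, Poll, Hmgb2, and H2afx, from -0.44 to -0.29) and 1 was lower and 1 higher in culture. Around Lck, 1 of 18 genes of T-cell receptor signaling was lower (Cd5) and 2 were higher (Fyn and Plcg1) in vivo. In culture 5 of 16 were lower, including Lcp2 (-1.01, adjusted p = 7.85e-05) and Thy1 (-1.09, adjusted p = 0.00884), and Fyn, a kinase related to Lck, was higher (+0.55, adjusted p = 0.00117).

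**Figure D4:**
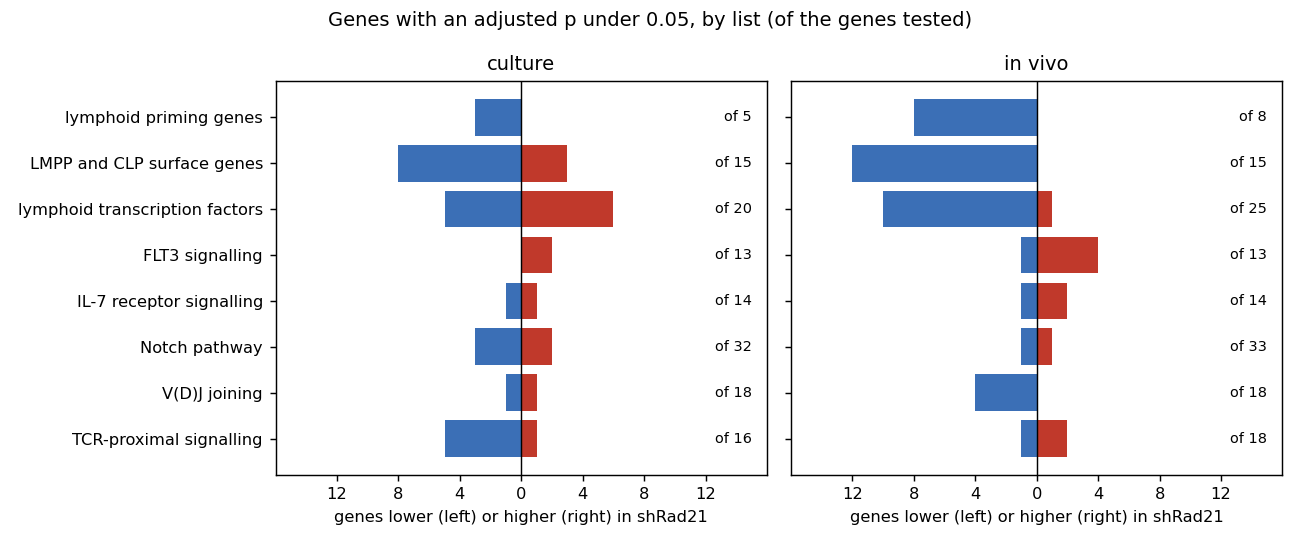
Number of genes of each list with an adjusted p under 0.05, lower (blue, to the left) or higher (red, to the right) in shRad21, with the number tested at the right. The lymphoid priming genes and the surface genes of lymphoid-primed progenitors have 8 of 8 and 12 of 15 genes lower in vivo. The lymphoid transcription factors have 10 of 25, compared with 5.32% of all genes tested, and the signaling lists have few. All lists were chosen with earlier results of these data known.

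Of 25 lymphoid transcription factors, 10 were lower and 1 was higher in vivo (5.32% and 5.65% of all genes), and of 20 tested in culture 5 were lower and 6 higher (8.06% and 6.18% of all genes). Tcf7, a T-lineage factor, fell in both settings, from 20.4 ± 3.89 to 3.58 ± 0.859 CPM in culture (SD, n = 3; log2 fold change -2.51, adjusted p = 3.61e-05) and from 8.04 ± 1.49 to 1.66 ± 0.668 CPM in vivo (-2.25, adjusted p = 0.00154). Lef1 (-1.85, adjusted p = 0.0265) and Bcl11b (-1.93, adjusted p = 0.0282) fell in vivo and had too few counts in culture. Gfi1, a transcriptional repressor, was higher in culture (+0.98) and lower in vivo (-0.97), as was Mef2c (+0.31 and -0.25), and both differences between settings were called.

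Of 15 surface genes of lymphoid-primed and common lymphoid progenitors, 12 were lower and 0 higher in vivo (5.32% and 5.65% of all genes), and 8 were lower and 3 higher in culture (8.06% and 6.18% of all genes). Kit, Cd34, and Cd48 on this list are also among the stem cell markers below, and Kit and Cd34 are among the 12. Ccr7, a chemokine receptor, fell in both settings (-2.08 and -2.68), as did Cd52 (-3.03 and -1.99) and Ly6d (-2.03 and -2.07). Ccr9, Cd53, and Cd27 were higher in culture (+2.49, +0.75, and +0.56), and the difference between settings was called for each. Kit, on which the in vivo cells but not the cultured cells were sorted, fell in both settings (-1.42 and -0.42).

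Markers of other cells moved in vivo as well. Their counts are to be read against all genes tested, 5.32% lower and 5.65% higher in vivo and 8.06% lower and 6.18% higher in culture. Of 12 B-cell markers tested, 9 were lower with shRad21, and the summed level of all 13 was 1135 to 2597 CPM with shLuci and 848 to 1593 CPM with shRad21, ranges that overlapped and of which Ighm made up most. Igll1 and Ebf1 of pro-B cells fell by 2.56 (adjusted p = 0.000272) and 2.13 (adjusted p = 0.00572) on the log2 scale, from shLuci means of 26.8 and 5.50 CPM. Of the T-cell markers, Cd3d, Cd3e, and Cd3g, which define mature T cells, had group means of at most 0.221 CPM and were not tested, and the summed level of all 12 markers in vivo was 10.9 to 12.6 CPM with shLuci and 2.93 to 3.997 CPM with shRad21. Of 10 plasmacytoid dendritic cell markers, 4 were lower in vivo, among them Irf8 (-1.76), and of 16 granulocyte and monocyte markers 6 were lower. Of 14 stem cell markers, 8 were higher in vivo, among them Slamf1 (+2.05, adjusted p = 2.18e-05), and 2 were lower, Kit (-0.42) and Cd34 (-0.26), and in culture 8 were higher and 1, Kit, was lower. The part of these other cells in the levels of the 8 genes was not tested.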

How the data were processed

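The study sequenced RNA of 12 libraries in 4 groups, assigned by their deposited labels. The authors removed rRNA reads with SortMeRNA, trimmed with Prinseq, mapped to GRCm38 (mm10) with TopHat2 2.0.11, and counted reads on genes with HTSeq 0.6.1, per the labels and methods, and the submitters' processing notes also name bcl2fastq 1.8.4, FastQC 0.11.3, and DESeq2 1.16.1. The deposited values are raw counts without normalization. The annotation release and strand setting are not given in the sources used here.

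Of 46078 genes, 45229 were matched to GENCODE M21, and the others held 0.105% of the counts. Genes were kept with filterByExpr (a minimum of 10 counts scaled to the median library, reached in 3 libraries, and 15 in all) and tested with the quasi-likelihood test of edgeR 4.0.16 in R 4.3.3, with TMM scaling and Benjamini-Hochberg adjustment over all genes tested, separately in culture and in vivo, and in a model of 12 libraries between settings. Standard errors were derived from the F statistic. Tests were two-sided. Correlations used log2 CPM with a prior count of 2. CPM was also scaled by exonic length. Tables and figures were made with Python 3.11.15, pandas 2.3.3, SciPy 1.17.1, and matplotlib 3.10.9. The promoter sequences are from RefSeq, with an entry for 8 of the 8 genes. The tests of the knockdown in each setting and of the interaction were run on simulated counts, and the other steps were not. With a log2 change of 1, the test recovered 79.6% of changed genes in culture (15383 genes run), 71.9% in vivo (15679), and 65% for the interaction (16620), and 9.04%, 7.51%, and 7.79% of the calls, respectively, fell on unchanged genes, above the nominal 5%.

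The 8 genes and all lists were chosen with earlier results of these data known. The named genes were Rad21, the 8 genes, up to 3 genes with the largest rise and 3 with the largest fall per list among those called at an average log2 CPM of 1 or more, list members where a statement is about the list, the nearest neighbours, and the genes with the most similar pattern. From these, the ones printed were picked with their values known.

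Replicate numbers come from the labels. After subtraction of group means, same-numbered libraries correlated with r = 0.217, 0.170, and 0.210 in culture, which was taken as pairing, and with r = 0.0341, 0.0509, and 0.0575 in vivo, which was not. The main culture fit left this pairing out, and only the replicate block used it. Alternatives were DESeq2 1.42.0, upper-quartile scaling, library size only, no filter, a filter of 10 counts in each library, the replicate block, a single model of 12 libraries, and the omission of each library in turn.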

Additional observations from a re-analysis of the deposited data

Results flagged for a closer look

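Of the 8 genes, 3 had a knockdown effect that differed between culture and in vivo by the interaction test. For Dntt the difference was 3.36 on the log2 scale, with 18.2 ± 9.45 and 36.7 ± 14.6 CPM (SD, n = 3) in shLuci and shRad21 cells in culture and 534 ± 149 and 107 ± 38.0 CPM in vivo. For Lck the difference was 1.27, with 15.8 ± 0.815 and 13.6 ± 1.23 CPM in culture and 78.2 ± 9.72 and 27.9 ± 1.08 CPM in vivo. For Rag2 the difference was 3.30, with 0.120 ± 0.0601 and 0.253 ± 0.0759 CPM in culture, from 7 and 18 counts in all with overlapping ranges (exact permutation p = 0.2), and 13.7 ± 1.24 and 2.70 ± 0.967 CPM in vivo. Rag2 entered this test only through the in vivo libraries.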

How the results depend on the processing

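No called value changed direction under any alternative. Over the 8 genes, the side of the threshold changed in 8 of 65 values for culture, 10 of 102 in vivo, and 7 of 141 for the interaction. With the replicate block, 1 of the 8 genes (Dntt) was called higher in culture and 1447 genes in all, against 0 and 960, and no other call among the 8 changed. Without a filter, 1 of the 8 was called higher in culture, 1400 genes were called lower and 1429 higher in vivo, and the interaction called 7 of the 8 and 453 genes higher and 956 lower. DESeq2 called 500 genes higher in the interaction. With 10 counts in every library, 4 of the 8 were called lower in culture than in vivo in shLuci cells, because Il7r, Rag1, and Rag2 were not tested. With 1 library left out, the number of the 8 called higher in culture was 0 to 1 and lower in vivo 5 to 8. Over all genes, culture gave 803 to 1538 lower and 549 to 1279 higher, in vivo gave 456 to 796 lower and 495 to 766 higher, and the interaction gave 342 to 550 lower and 135 to 305 higher. Depth limits Il7r, Rag1, and Rag2 in culture, where a library held 0 to 8 counts of each.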
